A study of Saccharomyces cerevisiae with 6 samples.

Results

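Cytochrome oxidase is the last enzyme of the respiratory chain, and it is built from subunits of mitochondrial and nuclear origin around heme A and copper cofactors. Building it needs many assembly factors that are not part of the finished enzyme, and 10 of their genes are described here: COA1, COA2, SHY1, MSS51, PET100, PET117, COX10, COX11, COX15 and COX17. The genes were matched by symbol in the platform's gene table, and all 10 were found among the 5656 genes measured, each read by 1 probe set that named no other gene. The set was chosen by the low level of COA2 in the mutant M1 against wild type, so every value of M1 against wild type is given as a description, without a test.

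The data are 6 one-colour expression arrays of total RNA from whole cells of Saccharomyces cerevisiae, with 2 arrays in each of 3 groups. All cells grew in YPD, the rich glucose medium, without treatment. The groups are wild type (WT) and M1 and M8, which are mutants of Tra1, a very large protein that activators bind in both the SAGA and the NuA4 coactivator complex, and which the series describes as defective in the interaction with the activator Gal4. The sources used here do not give the amino acid changes, the strain background or the number of TRA1 copies in the mutants. Nothing in the labels says that the duplicates came from separate cultures, and the p-values then cover a spread that may be technical only. Values are log2 expression levels, on which a difference of 1 is a doubling, and levels of different genes are not compared because each probe set has its own brightness.

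Yeast cells ferment glucose in rich medium and repress much of their respiratory machinery there. In assembly, the core subunit Cox1 is made inside the mitochondrion, held by early chaperones, given its heme A groups and its copper, and then joined by Cox2, Cox3 and the small nuclear-encoded subunits. COX10 and COX15 act in heme A synthesis, COX11 and COX17 in copper delivery, MSS51 and COA1 on newly made Cox1, SHY1 and COA2 on Cox1 as its heme centre forms, and PET100 and PET117 on further assembly steps.

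COA2 (YPL189C-A) was lower than WT in both mutants, and it was the member farthest below WT in either of them. Coa2 is a small protein on the matrix side of the inner membrane that cooperates with Shy1 while Cox1 matures. The log2 levels of COA2 were 8.05 and 8.05 in WT, 7.23 and 7.24 in M1, and 7.42 and 7.73 in M8. All 4 mutant arrays lay below both WT arrays, and both M1 arrays lay below both M8 arrays. The group means with their SD (n = 2) were 8.05 ± 0.0028 for WT, 7.24 ± 0.012 for M1 and 7.58 ± 0.22 for M8.

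The COA2 message in M8 stood at 0.721 of the WT level, a log2 difference of -0.47 (SE 0.13, 95% confidence interval -0.78 to -0.16). That difference did not pass the test over all genes, with limma adjusted p = 0.522 after Benjamini-Hochberg correction and an unadjusted p = 0.0078 from the same fit. The comparison shares its WT arrays with the one that chose COA2, so it is not independent of that choice. Its SE and p-value also pool the spread of all 3 groups, including the close WT and M1 duplicates of COA2 (SD 0.0028 and 0.012, against 0.22 in M8). The M8 difference rested partly on 1 array of M8, with -0.63 without M8 replicate 2 and -0.32 without M8 replicate 1. In M1 the COA2 message stood at 0.569 of WT, a log2 difference of -0.81, which was the 7th lowest of the 5656 genes. Both M1 replicates gave nearly that value, -0.82 in replicate 1 and -0.80 in replicate 2. The mutants differed from each other by 0.34, M8 above M1, a description that uses the M1 arrays through which COA2 was picked. Both M8 arrays lay above both M1 arrays for 3 members, COA2, SHY1 and COX15, as they did for 19.5% of all genes.

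**Figure D1:**
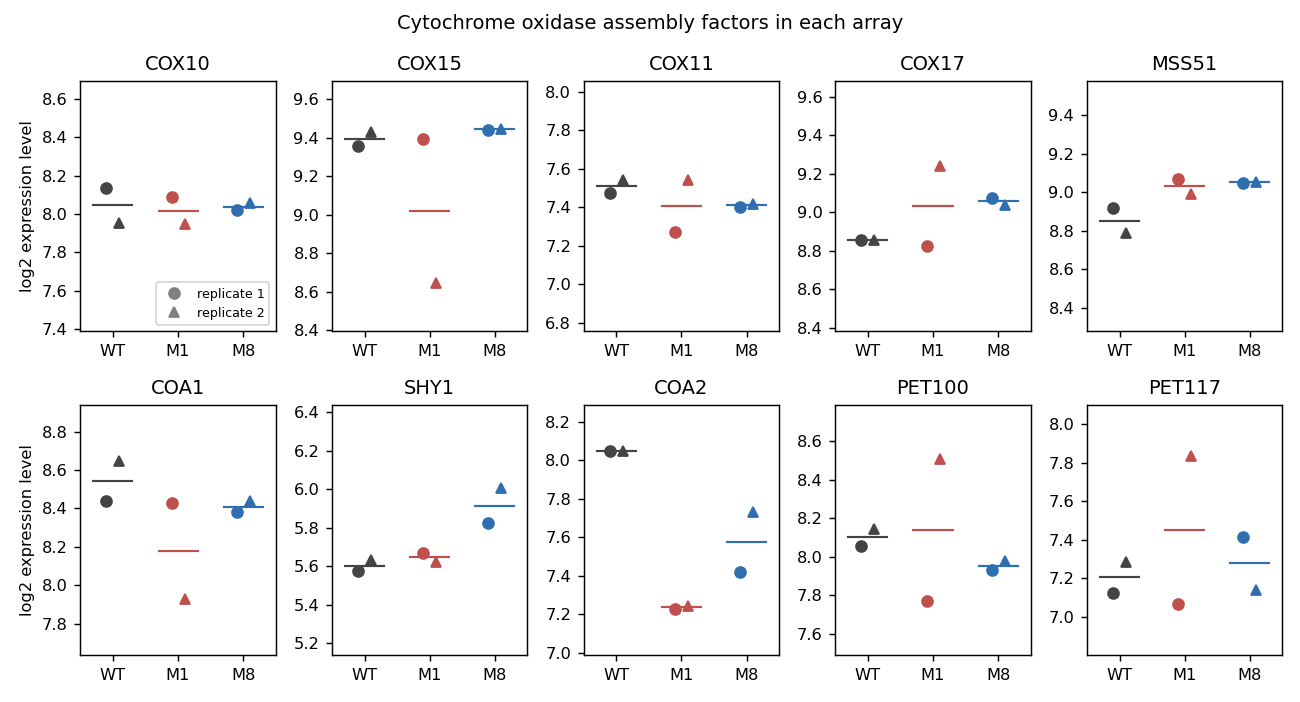
The log2 expression level (vertical axis, the same span in every panel) of each of the 10 assembly factor genes is plotted for the 2 arrays of WT, M1 and M8; circles are replicate 1, triangles replicate 2 and lines the group means. COA2 sits at 8.05 in both WT arrays and below it in all 4 mutant arrays, while the M1 replicates of COX15, COA1, PET100, PET117 and COX17 lie apart.

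Over the set of 10, the messages stood on both sides of WT in M8. Of the 10 members 5 were above WT and 5 below, with a median difference of 0.021 beside 0.029 for all genes. None passed by limma after Benjamini-Hochberg correction, as was the case for 0 of the 5656 genes (0%). At an unadjusted p under 0.05 there was 1 member above WT, SHY1, where all genes gave 4.74%, and 1 below, COA2, where all genes gave 2.32%. Both M8 arrays lay above both WT arrays for 4 members (29.0% of all genes) and below them for 4 members (19.1% of all genes). With so few arrays, groups that do not overlap are common, since 48.0% of all genes had them in this comparison.

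In M1, 5 members were above WT and 5 below, with a median of 0.0061 beside 0.012 for all genes. COA2 and COA1 had both M1 arrays below both WT arrays (13.5% of all genes), and MSS51 had both above (22.0% of all genes). No gene of the whole table was called in M1 either (0%), while 485 genes (8.57%) had an unadjusted p under 0.05. In all 4 mutant arrays together, COA2 and COA1 lay below both WT arrays, as 6.86% of all genes did, and MSS51 lay above, as 11.9% of all genes did. COA2 was picked for its low M1 level against these WT arrays, so its place in these counts is no test. The sign of the set's median is not fixed. It was -0.0057 in M8 after quantile normalization and -0.0075 after centring each array on its median, and -0.0084 in M1 after centring. In M8 it was -0.027 without M8 replicate 1. In M1 it was -0.073 without M1 replicate 2 and 0.026 without M1 replicate 1.

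**Figure D2:**
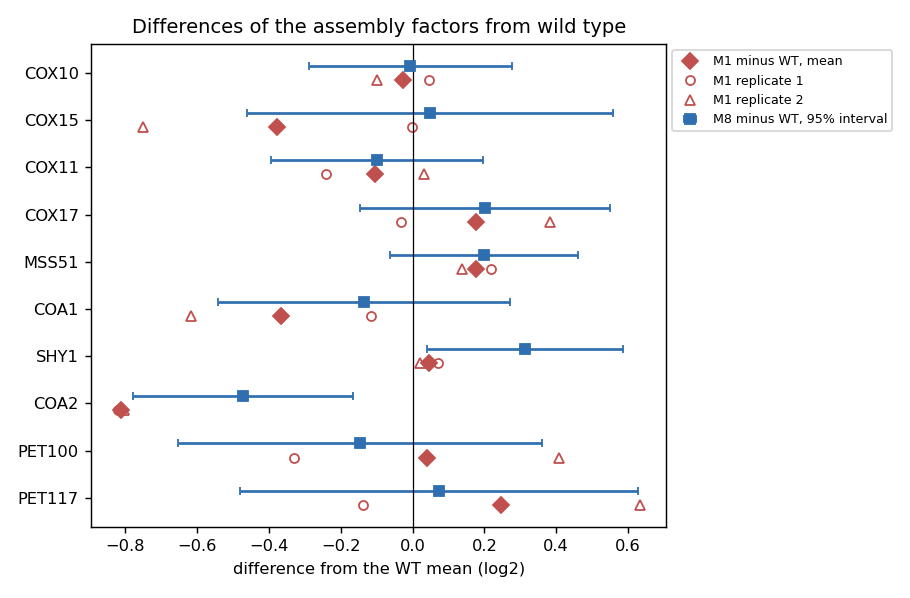
Differences from the WT mean (horizontal axis, log2) are plotted for each assembly factor gene; blue squares are M8 with the 95% confidence interval of the limma fit, red diamonds are M1 means and open red symbols its 2 arrays. The M8 interval lies wholly below 0 for COA2 and wholly above 0 for SHY1, before any correction for the number of genes tested.

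SHY1 (YGR112W), the yeast counterpart of human SURF1, encodes the partner of Coa2 in forming the heme centre of Cox1. Its log2 levels were 5.57 and 5.63 in WT, 5.67 and 5.62 in M1, and 5.82 and 6.01 in M8. Both M8 arrays lay above all other arrays, and the M1 and WT arrays overlapped. The difference of M8 from WT was 0.31 (SE 0.12, 95% confidence interval 0.041 to 0.58), or 1.24-fold, with limma adjusted p = 0.660. In M1 it was 0.045. In M8 SHY1 and COA2 thus stood on opposite sides of WT, and neither passed the correction. The SHY1 signal was dim, at percentile 20.8 of the mean signals of all genes, against 56.7 for COA2.

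MSS51 (YLR203C) encodes a protein that activates translation of the COX1 message and binds newly made Cox1. Its log2 levels were 8.92 and 8.79 in WT, 9.07 and 8.99 in M1, and 9.05 and 9.05 in M8, so all 4 mutant arrays were the highest. The size was small, 0.18 in M1 and 0.20 in M8 (SE 0.11, 95% confidence interval -0.063 to 0.46), with limma adjusted p = 0.805 for M8.

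COA1 (YIL157C) encodes an inner membrane protein that keeps Mss51 bound to newly made Cox1. Its log2 levels were 8.44 and 8.65 in WT, 8.43 and 7.93 in M1, and 8.38 and 8.44 in M8. All mutant arrays were below both WT arrays, but M1 replicate 1 and both M8 arrays lay within 0.1 of the lower WT array, and only M1 replicate 2 was far below. The difference in M8 was -0.14 (SE 0.17, 95% confidence interval -0.54 to 0.27), with limma adjusted p = 0.908. The M1 difference of -0.37 became -0.12 without M1 replicate 2.

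Of the heme A genes, COX10 (YPL172C), which encodes the enzyme that turns protoheme into heme O, was the steadiest member, with an SD of 0.076 over the 6 arrays and levels of 8.14 and 7.95 in WT, 8.09 and 7.95 in M1, and 8.02 and 8.06 in M8. All groups overlapped, and the difference in M8 was -0.0071 (SE 0.12, 95% confidence interval -0.29 to 0.28). COX15 (YER141W), which encodes the enzyme that makes heme A from heme O, had 9.36 and 9.43 in WT, 9.39 and 8.64 in M1, and 9.44 and 9.45 in M8. Here 5 arrays were close together and M1 replicate 2 alone was low. The M1 difference of -0.38 was -0.0018 without that array, and the M8 difference was 0.049 (SE 0.22) with limma adjusted p = 0.980.

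The copper genes differed from WT in M8 by at most 0.20 on the log2 scale. COX17 (YLL009C), a copper chaperone of the intermembrane space, had levels of 8.86 and 8.86 in WT, 8.83 and 9.24 in M1, and 9.08 and 9.04 in M8. Both M8 arrays were above WT and the M1 arrays lay on either side of it. The M8 difference was 0.20 (SE 0.15, 95% confidence interval -0.15 to 0.55), with limma adjusted p = 0.862, and the M1 difference of 0.18 was -0.032 without M1 replicate 2. COX11 (YPL132W), which passes copper to Cox1, had levels of 7.48 and 7.54 in WT, 7.27 and 7.54 in M1, and 7.40 and 7.42 in M8. It differed by -0.10 in either mutant, with limma adjusted p = 0.908 for M8 and a 95% confidence interval of -0.40 to 0.20.

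PET100 and PET117 were the members whose M1 duplicates disagreed most upward. PET100 (YDR079W), which encodes a factor that binds a subassembly of Cox7, Cox8 and Cox9, had levels of 8.06 and 8.14 in WT, 7.77 and 8.51 in M1, and 7.93 and 7.98 in M8. The M1 arrays lay on opposite sides of WT, with -0.33 in replicate 1 and 0.41 in replicate 2, and the M8 difference was -0.15 (SE 0.22, limma adjusted p = 0.925). PET117 (YER058W), which links heme A synthesis to assembly, had 7.12 and 7.29 in WT, 7.07 and 7.84 in M1, and 7.42 and 7.14 in M8. Its M1 mean of 0.25 above WT came from replicate 2 alone, since replicate 1 stood at -0.14. Its M8 difference of 0.073 (SE 0.24, limma adjusted p = 0.977) turned to -0.065 without M8 replicate 1.

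The disagreement between the M1 duplicates touched much of the set. M1 replicate 2 was the array farthest from the others over all genes, with an SD of 0.303 from the mean of the other 5 arrays against 0.139 to 0.194. Of the 10 members, 5 differed by more than 0.3 between the M1 duplicates, as 33.4% of all genes did. In the other groups 0 members did in WT (12.6% of all genes) and 1 did in M8, COA2 (3.77% of all genes). From M1 replicate 1 to replicate 2, PET117 differed by 0.77, PET100 by 0.74 and COX17 by 0.41, while COX15 differed by -0.75 and COA1 by -0.50. COA2 differed by only 0.017 between the M1 duplicates, so its M1 level was as low in one array as in the other.

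**Figure D3:**
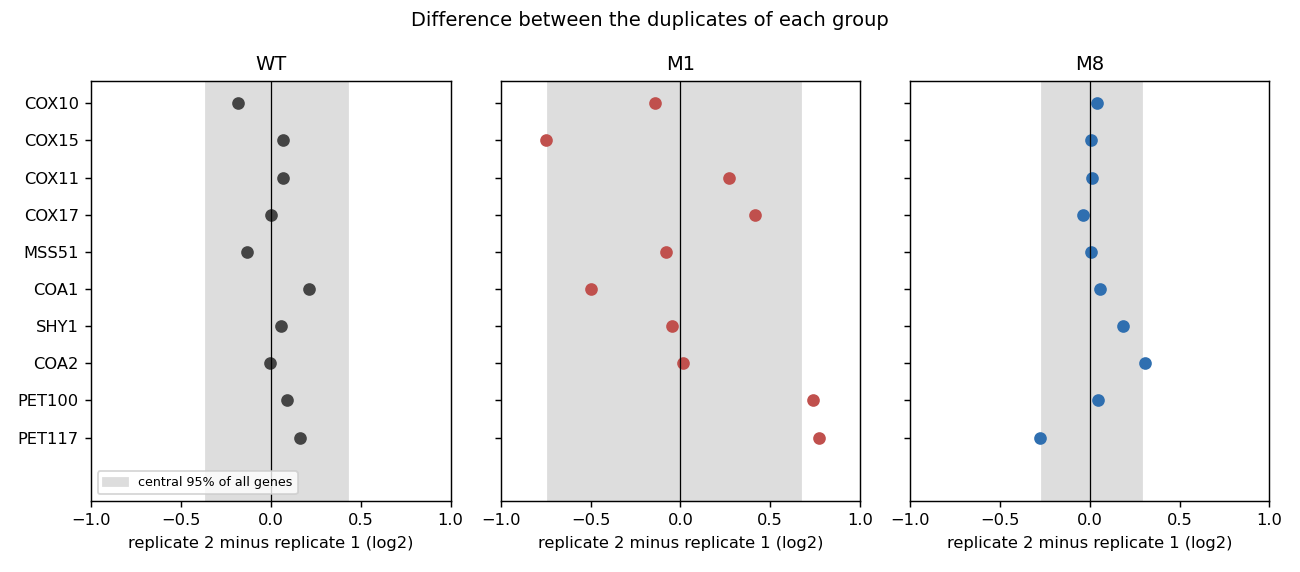
The log2 difference of replicate 2 minus replicate 1 (horizontal axis) is plotted for each assembly factor gene in WT, M1 and M8; the grey band holds the central 95% of all genes in that group. In M1, PET100 and PET117 lie on the right and COX15 and COA1 on the left, whereas COA2 is at 0.017.

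The genes next to COA2 in the R64 gene table were read for comparison, and none of them overlapped COA2 in that table. NAB3, the neighbour on one side, encodes an RNA-binding protein of transcription termination, and had log2 levels of 6.34 and 6.58 in WT, 6.66 and 6.09 in M1, and 6.88 and 7.01 in M8. It was thus above WT in M8, by 0.48 (SE 0.19, limma adjusted p = 0.671), where COA2 was below. GUP2, the neighbour on the other side, differed by 0.021 in M8 and 0.079 in M1. The next genes outward, YPL191C and POS5, differed by -0.067 and 0.080 in M8 and by 0.031 and 0.13 in M1.

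Among the structural subunits of cytochrome oxidase, COX7, COX8 and COX26 had all 4 mutant arrays below both WT arrays, 3 of the 10 nuclear-encoded genes against 6.86% of all genes. In the lists described below, the same held only for HAP3, COX18, PET54, HEM12, ATX1 and, on the probe set kept but not on all of its probe sets, HAP1. In those lists all 4 mutant arrays lay above both WT arrays for SCO2, CTR1, AEP3 and CBS2, as they did for 11.9% of all genes. COX7 (YMR256C) encodes a small subunit of the enzyme, with log2 levels of 10.21 and 10.11 in WT, 9.67 and 9.74 in M1, and 9.71 and 9.85 in M8. No mutant array reached the WT range, and the differences were -0.45 in M1 and -0.38 in M8 (SE 0.12), with limma adjusted p = 0.621 for M8. COX8 had 9.50 and 9.49 in WT, 9.28 and 9.08 in M1, and 9.27 and 9.17 in M8. Its differences were -0.31 in M1 and -0.27 in M8 (SE 0.12), with limma adjusted p = 0.707 for M8. COX26, a dim gene at percentile 8.50, differed by -0.27 in M1, or -0.083 without M1 replicate 2, and by -0.18 in M8. COX9, the third subunit of the subassembly that Pet100 binds, differed by only 0.013 in M8.

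The 10 nuclear-encoded subunits as a list had a median of -0.053 in M8, with 4 above WT and 6 below, and 0 called. At an unadjusted p under 0.05, 0 were higher (4.74% of all genes) and 1 was lower (2.32% of all genes) in M8, which was COX7. In M1 their median was -0.28, with 2 above WT and 8 below and 0 called, and it was -0.075 without M1 replicate 2. The lowest values in that array belonged to COX5A, at -0.90 from the WT mean against 0.13 in M1 replicate 1, and to COX4, at -0.69 against -0.067. In M8 the median was 0.028 without WT replicate 2, 0.034 without M8 replicate 1, -0.14 without WT replicate 1 and -0.15 without M8 replicate 2, so its sign is not fixed either. COX12 differed by -0.22 in M8 and by -0.13 in M1. The core subunits COX1, COX2 and COX3, which the mitochondrial genome encodes, had signals between percentiles 0.725 and 7.001 of all genes, so a drop in them was hardly detectable here. They differed by 0.30, -0.18 and 0.021 in M8. The 0.30 of COX1 came from the probe set kept, whose WT duplicates differed by -0.47, while its other probe sets gave 0.081 and -0.015.

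**Figure D4:**
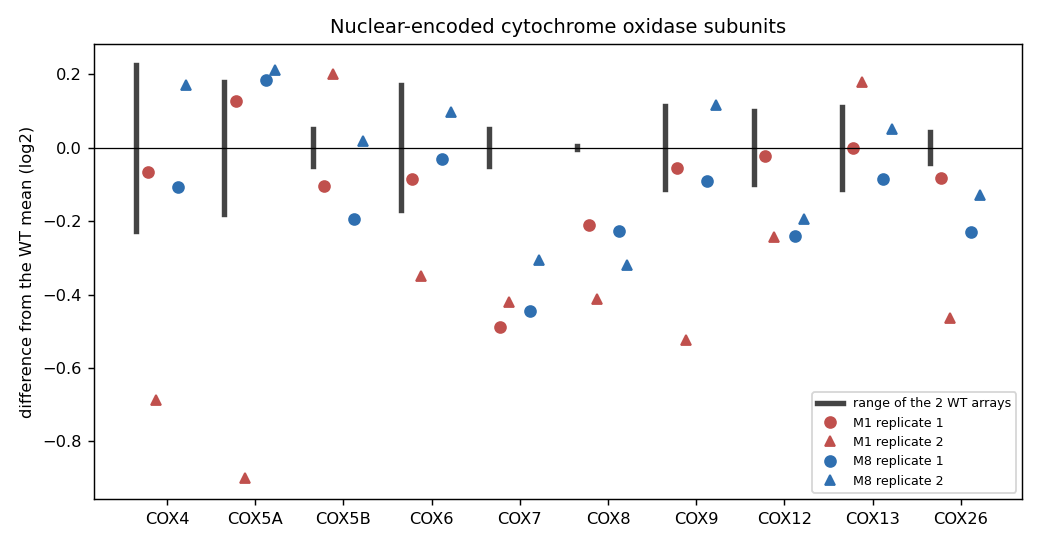
The log2 difference of each mutant array from the WT mean (vertical axis) is plotted for the 10 nuclear-encoded subunit genes; red is M1, blue is M8, circles are replicate 1, triangles replicate 2 and the dark bars span the 2 WT arrays. COX7, COX8 and COX26 lie below the WT bar in all 4 mutant arrays, as 6.86% of all genes do, and COX4, COX5A, COX6 and COX9 are low mainly in M1 replicate 2.

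The other assembly factors of the enzyme gave 19 measured genes of 20 listed. In M8 their median was 0.066, with 13 above WT and 6 below, and 0 called. COX20, which encodes a chaperone of Cox2, had levels of 5.42 and 5.48 in WT, 5.58 and 5.35 in M1, and 5.89 and 5.88 in M8. Its M8 arrays stood above the 4 others, by 0.44 over WT (SE 0.12, limma adjusted p = 0.522), and at an unadjusted p under 0.05 it was the 1 gene of 19 higher (4.74% of all genes), with 0 lower (2.32%). COX19, a gene of copper handling in the intermembrane space, differed by 0.34 in M8 (SE 0.36). In M1 the median of the list was -0.017, with 8 above WT and 11 below, and it was 0.0064 without M1 replicate 2, -0.13 without M1 replicate 1, -0.097 without WT replicate 1 and 0.045 without WT replicate 2. The M8 median lay between 0.042, with M8 replicate 1 left out, and 0.14, with WT replicate 2 left out, and was 0.10 without M8 replicate 2. COX19 was at -0.72, of which M1 replicate 2 alone gave -1.33 and replicate 1 gave -0.11. COA4 differed by 0.40 in M1, which was 0.034 without M1 replicate 2, and by 0.30 in M8. SCO2, a relative of the copper carrier SCO1, differed by 0.31 in M1 and 0.23 in M8. The 5 activators of translation of the mitochondrial COX messages had a median of -0.068 in M8 and -0.030 in M1. Without WT replicate 1 these were -0.15 and -0.11, without WT replicate 2 -0.040 and 0.053, and the M1 median was 0.0037 or 0.0035 without M1 replicate 1 or 2. PET54 differed by -0.19 in M8 and -0.18 in M1.

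No gene of heme or copper supply was called in either mutant, and the genes with larger differences are described without a claim of change. The 8 heme synthesis genes had a median of -0.032 in M8, with 2 above WT and 6 below and 0 called. That median was 0.021 without M8 replicate 1, -0.14 without M8 replicate 2, -0.094 without WT replicate 1 and -0.0029 without WT replicate 2, so its sign is not fixed. HEM12, which encodes a decarboxylase of the pathway, had 8.98 and 8.99 in WT, 8.79 and 8.94 in M1, and 8.58 and 8.70 in M8. Both M8 arrays were the lowest, with a difference of -0.34 (SE 0.12, limma adjusted p = 0.655). HEM15, the ferrochelatase gene that makes the protoheme used by Cox10, differed by -0.11 in M8 and by -0.36 in M1, which was -0.085 without M1 replicate 2. In M1 the median of the heme list was -0.071, with 2 above WT and 6 below. It was 0.091 without M1 replicate 2, -0.18 without M1 replicate 1, -0.15 without WT replicate 1 and 0.0095 without WT replicate 2.

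Of 15 copper genes listed, 13 were measured, with a median of 0.055 in M8 and -0.030 in M1 and 0 called in either. Neither sign is fixed, since the M8 median was -0.0074 without M8 replicate 1 and 0.16 without M8 replicate 2, and the M1 median lay between 0.016 and 0.052 with any 1 M1 or WT array left out. ATX1, the gene of a cytosolic copper chaperone, differed by -0.32 in M8 and -0.22 in M1, and CTR1, the high-affinity copper transporter gene, by 0.26 and 0.39. In M1 replicate 1 alone ATX1 stood at -0.39 and CTR1 at 0.18, and in replicate 2 alone at -0.049 and 0.60. CTR2, the vacuolar copper transporter gene, differed by 0.14 in M8 and -0.61 in M1, which was -0.26 without M1 replicate 2. Of the 6 transcription factor genes of respiration, 4 were above WT in M8, with a median of 0.15 and 0 called. HAP5, a subunit of the CCAAT-binding activator, differed by 0.42 in M8 (SE 0.17, limma adjusted p = 0.671) and by 0.048 in M1. HAP4, the limiting activator subunit, differed by 0.094 and -0.044. All 4 mutant arrays lay below both WT arrays for HAP3 and for the heme activator gene HAP1, 2 of 6 genes against 6.86% of all genes. HAP3, another subunit of the CCAAT-binding activator, differed by -0.20 in M8 and -0.31 in M1. HAP1 differed by -0.11 in M8 and -0.16 in M1 on the probe set kept for its highest mean. Its other probe sets went both ways, with -0.25 in M8 and -0.24 in M1 against 0.086 in M8 and 0.075 in M1. Counting HAP1 here thus depends on the probe set kept.

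Assembly and expression factors of the neighbouring complexes served as a comparison. The 10 genes listed for the bc1 complex had medians of 0.033 in M8 and 0.049 in M1, and the 10 genes for ATP synthase had 0.023 and 0.063, with 0 called in either mutant. The bc1 list included QRI5, which acts on the COX1 message and so belongs to cytochrome oxidase rather than to bc1. The ATP synthase median in M1 was -0.035 without M1 replicate 1 and 0.21 without M1 replicate 2, and the bc1 median in M8 was -0.0044 without WT replicate 1. Their differences in M8 ranged from -0.17 to 0.18 and from -0.089 to 0.19. QRI5 alone gave the -0.17. The next lowest gene of that list was CBP6 at -0.12, and COA1 at -0.14 and PET100 at -0.15 lay below it. The COA2 difference of -0.47 lay outside both ranges, as did SHY1 at 0.31, MSS51 at 0.20 and COX17 at 0.20. COA2 was picked for its low M1 level against the same WT arrays, so its place outside these ranges is no test. Genes of other lists lay outside them too, such as COX20 at 0.44 and COX7 at -0.38. CBP6, a bc1 factor gene, differed by -0.31 in M1, and AEP3, an ATP synthase expression factor gene, by 0.46, which was 0.22 without M1 replicate 2.

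The genes whose levels over the 6 arrays were most like those of COA2 were ranked among the 1392 genes with an SD of at least 0.2 over the arrays. STP2, a transcription factor gene of amino acid uptake, came first with Pearson's r = 0.98, followed by ISF1 (r = 0.97), the sphingoid base transporter gene RSB1 (r = 0.96), COX7 (r = 0.95) and YNL046W (r = 0.93). These 5 genes were below WT in all 4 mutant arrays, with differences in M1 from -0.45 for COX7 to -0.61 for YNL046W and in M8 from -0.26 for RSB1 to -0.38 for COX7. The most opposite genes were MSC1 (r = -0.99), MIG3 (r = -0.97) and DLD3 (r = -0.96). DLD3 differed by 0.70 in M1 and 0.56 in M8. The correlations are a description over 6 arrays in 3 groups, all scaled together, and COA2 was itself chosen for its low M1 level. Of the other members, COA1 came closest to COA2 with r = 0.66, and MSS51 was the most opposite with r = -0.74.

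**Figure D5:**
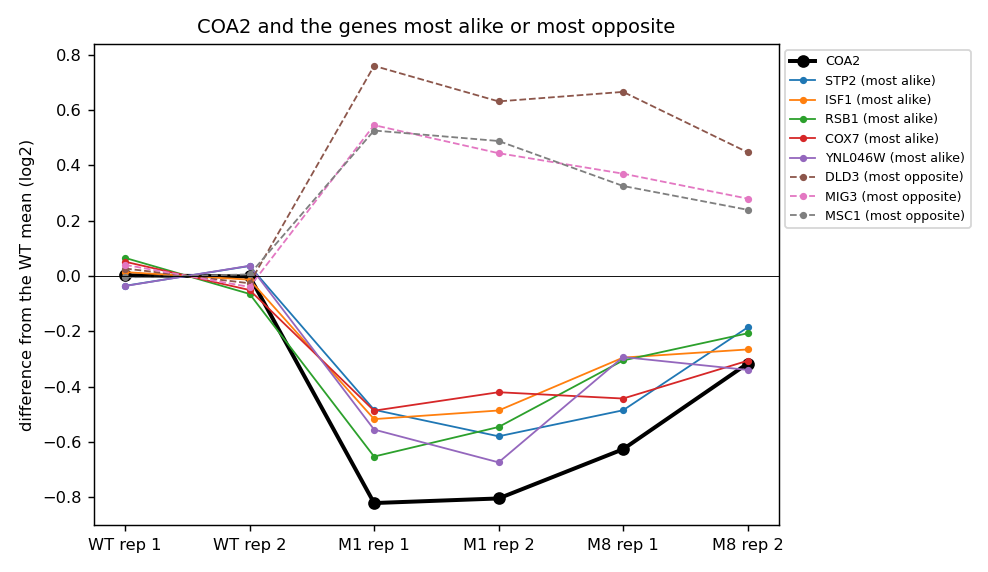
The log2 difference from the WT mean (vertical axis) is plotted for COA2 (black), the 5 genes most like it (solid lines) and the 3 most opposite (dashed lines) in each of the 6 arrays; the lines only guide the eye. COA2 runs from -0.82 in M1 replicate 1 to -0.32 in M8 replicate 2, with COX7 among the genes below WT in all 4 mutant arrays.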

How the data were processed

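The authors deposited log2 levels of 9275 probe sets on 6 arrays. Per the submitters' processing notes, RMA and oligo were used, with neither versions nor settings given. The array medians of 6.48 to 6.52 show a common scaling, under which a change of all messages at once cannot be seen, and RMA makes no detection call. The number of arrays limits the precision. Of the probe sets, 6504 carried 1 gene in the platform's table, 328 several and 2443 none. Per gene the probe set with the highest mean was kept (5656 genes). Names and neighbours came from the R64 gene table.

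limma 3.58.1 (R 4.3.3) fitted the 3 group means, leaving 3 residual degrees of freedom, followed by eBayes. The two-sided p-values were adjusted by Benjamini-Hochberg over all 5656 genes, with calls at an adjusted p under 0.05. The calculation was tested on simulated data. Members and gene lists were chosen with earlier results of these data known. The genes named from each list were taken from the up to 3 with the largest difference in each mutant, but not all of those were named. Left out were, among others, ROX1, at 0.30 in M8, and PET111, at -0.34 in M1 but 0.0035 in replicate 1 alone. COX6, COX9, COX18, COX26 and HAP4 were added after their values were seen. CMC2, CUP1-1 and CUP1-2 had no probe set of their own. Alternatives covered scaling, probe set choice, dim genes, the variance model, single arrays left out and the replicate number as a block.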

Additional observations from a re-analysis of the deposited data

Results flagged for a closer look

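For COX15, COX19 and CTR2, both M1 arrays lay below the WT mean and both M8 arrays above it. M8 exceeded M1 by 0.43 for COX15, by 1.06 for COX19 and by 0.75 for CTR2. This opposition was not tested as such for these genes, and M1 replicate 2 gave most of it. M1 replicate 1 was only -0.0018 from the WT mean for COX15, -0.11 for COX19 and -0.26 for CTR2.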

How the results depend on the processing

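Each comparison was repeated under 15 alternatives. The M8 estimate of a member stayed the same under every variance model, probe set choice and replicate block. It also did with dim genes or an M1 array left out, and with only WT and M8 fitted. No sign could change under those alternatives, which limits what the following count shows. For the members in M8, 145 of 149 values kept their sign and none passed the adjusted threshold. The other 4 changed sign near 0: PET117 was -0.0091 without WT replicate 1 and -0.065 without M8 replicate 1, and COX10 was 0.084 and 0.012 without the same arrays. With 1 array left out, PET117 ranged from -0.065 to 0.21 and COX10 from -0.098 to 0.084 in M8. Over all alternatives COA2 ranged from -0.63 to -0.32 in M8, with limma adjusted p of 0.138 or more, and from -0.83 to -0.80 in M1. The count of genes called in M8 was 23 when only WT and M8 were fitted, and 0 to 23 with 1 array left out. In M1 it was 3 with the mean over probe sets, 3 without the dimmest 25% of genes, and 0 to 382 with 1 array left out. For M8 against M1, leaving out 1 array gave 0 to 748. The high counts came without an M1 array, which takes the disagreement of the M1 duplicates out of the estimated spread. In M1 and for M8 against M1, the highest count came without M1 replicate 1. There M1 replicate 2, the array farthest from the others, stood alone for M1. The ordinary linear model called 0 genes in each comparison, where 389 genes had an unadjusted p under 0.05 in M8 and 455 in M1. With the replicate block 0 genes were called in M8, in M1 or between them. No source says that the numbers 1 and 2 pair the samples, and duplicate differences correlated by -0.31 for WT with M1, 0.30 for WT with M8 and -0.11 for M1 with M8. Signals of SHY1 and of the mitochondrially encoded subunits were dim, which limits what a drop could show.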
